A study of Saccharomyces cerevisiae with 8 samples.

Results

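Yeast cells that express SIR3-A2Q from the strong GPD promoter were compared with wild-type cells (WT), with every gene that passed a minimum level as a member. A gene was a member where its value was at least 10 in at least 2 of the 4 libraries of these strains. That held for 5434 of 5798 genes, and 364 were left out. All strains are Saccharomyces cerevisiae in the W303 background, grown exponentially. The groups were WT, GPD-SIR3-A2Q (overexpression of the A2Q point mutant), GPD-SIR3 (overexpression of SIR3 without the change) and SIR3Δ (no SIR3), with 2 total-RNA libraries each. The labels give no mating type, no remark on the resident SIR3 copy and do not say whether the libraries of a strain came from different cultures. The p-values therefore reflect library-to-library spread alone, which may be technical. Values are scaled read counts, in which the genes of each library sum to the same total. Reads on genes numbered 12016033 and 10447338 in the A2Q libraries and 16207210 and 11915662 in WT. Changes are log2 fold changes of value plus 1, given with the SE of a limma fit over all 8 libraries. A gene was called where the Benjamini-Hochberg adjusted p over all genes was below 0.05. With 2 libraries on each side, the smallest p of an exact permutation test is 0.333. In bulk RNA, fewer cells of a type and less RNA per cell cannot be told apart.

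Sir3 binds nucleosomes and, with Sir2 and Sir4, forms the heterochromatin that silences genes near telomeres and the HML and HMR mating-type cassettes. Its alanine after the start methionine is acetylated by NatA, and replacing it by glutamine (A2Q) is known to weaken silencing. The silent cassettes carry the regulators of both mating types. When a1 of HMR is made in a cell that also has alpha2, the a1/alpha2 repressor binds operators at haploid-specific genes and shuts them off. The same repressor shuts off the alpha1 gene, whose product activates the alpha-specific genes. In diploid cells, which hold both regulators, IME4 is expressed, and RME1, a repressor of the meiotic master regulator IME1, is kept low.

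The A2Q change lies in codon 2 of SIR3 (YLR442C, chromosome XII, 1019315 to 1022251, minus strand, build R64). The first 30 bases of the reference gene are shown because they hold the codon that names the strain, which is in capitals and reads alanine.
SIR3, XII:1022222-1022251: atgGCTaaaacattgaaagatttggacggt
SIR3 stood at 448 and 484 in WT and at 13132 and 13217 in GPD-SIR3-A2Q. It was at 10730 and 13865 in GPD-SIR3 and at 39.1 and 36.8 in SIR3Δ. The overexpressed level was 28.3-fold that of WT (log2 fold change 4.82 ± 0.14, limma adjusted p = 3.67e-07). Both overexpression strains overlapped in SIR3 level (0.11 ± 0.14, limma adjusted p = 0.789). Both overexpression strains thus stood above WT and SIR3Δ below it in every library. The table does not show which base sequence the SIR3 reads carried, so the A2Q change itself was not checked here.

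Other silencing genes were not called. SIR2, the histone deacetylase of the complex, was at 301 and 294 in WT and 232 and 281 in A2Q (−0.22 ± 0.20). SIR4, the scaffold, differed by 0.10 ± 0.13, and SIR1, which acts at the cassettes, by 0.19 ± 0.26. Of 31 further silencing and telomere-binding genes, limma called 0, with 2 at an unadjusted p below 0.05, and edgeR, DESeq2 and limma-voom called 0 as well. Their median change was 0.08, against −0.03 over all genes tested. ARD1, the catalytic subunit of NatA, was among them (−0.27 ± 0.14). CAC2, a chromatin assembly factor subunit, had 0.47 ± 0.18, and HST3, a histone deacetylase, −0.42 ± 0.18. For scale, 329 of the 4898 genes tested beyond 50 kb from a chromosome end had an unadjusted p below 0.05.

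Over the whole comparison 41 genes were called. Higher in A2Q were 7 genes, 0.129% of those tested, and lower were 34, 0.626%. All 7 higher genes and 28 of the 34 lower ones changed at least 2-fold. The higher genes were SIR3, IME4, YIL169C, YOL086W-A, HPF1, ADH4 and CHA1. Among the lower genes, 16 belong to the alpha-specific and haploid-specific lists and 18 do not. Leaving out 1 library of the compared strains lowered the lower count to 19 (without WT 1), 14 (WT 2), 11 (A2Q 1) or 15 (A2Q 2), and the higher count to 6 in each case. When each of the 8 libraries was left out in turn, 16 of the 41 genes were called every time, among them SIR3, IME4, MF(ALPHA)2, STE3, SAG1, YLR040C, GPA1, STE5, FAR1, AXL1 and GAP1.

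**Figure D1:**
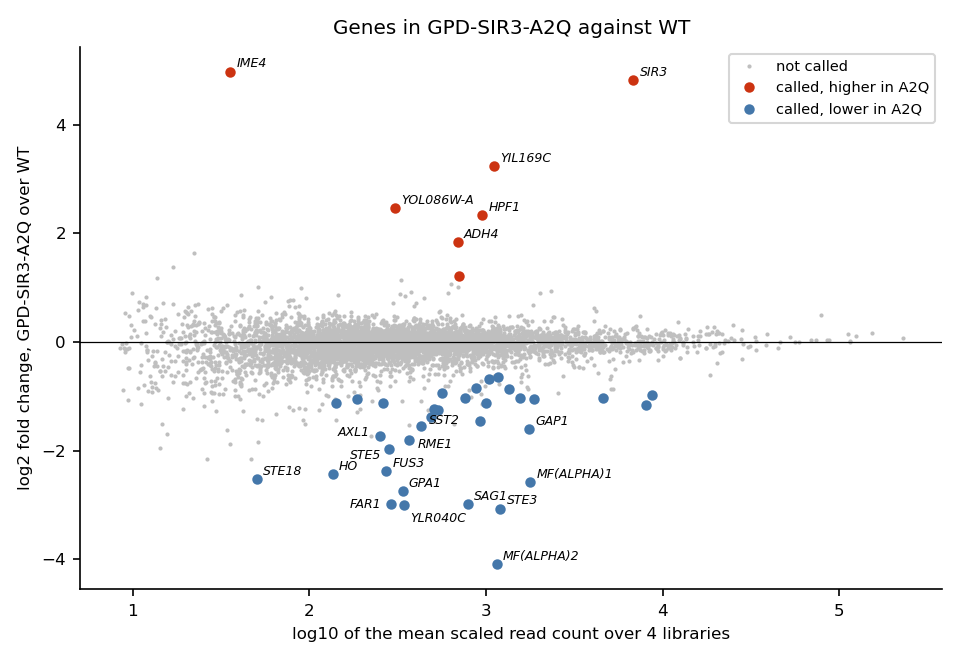
Log2 fold change of GPD-SIR3-A2Q over WT against the log10 mean scaled read count over the 4 libraries, 1 point per gene. Red points are the 7 genes called higher and blue points the 34 called lower, with names for called changes beyond 1.5 on the log2 scale.

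A gene of the silent cassette HMR had reads in A2Q and none in WT. HMRA1 (YCR097W, chromosome III, 293835 to 294321) encodes the a1 regulator, and none of its 50-base stretches recur in the reference genome. It had 0 reads in both WT and both GPD-SIR3 libraries. In A2Q it had 13 and 20 reads, values of 7.58 and 13.4, and in SIR3Δ values of 58.5 and 48.9. Its low level kept it out of the members. The A2Q mean was at least 6.86-fold higher than a floor of 3 counts in each WT library. Per read on genes, A2Q reached 19% of the SIR3Δ level (95% exact interval 12.8% to 27.3%, counting error only). With the minimum applied over all 8 libraries, HMRA1 was not called against WT (limma adjusted p = 0.0744), and with no minimum it was (0.00511). The other cassette and MAT genes, HMRA2, HMLALPHA1, HMLALPHA2, MATALPHA1 and MATALPHA2, consist wholly of repeated sequence and are listed at 0 in all 8 libraries.

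Alpha-specific genes, which mark alpha cells, were high in WT and fell in A2Q, all 5 of them, to between 5.83% and 16.8% of the WT mean. In SIR3Δ they lay lower still, at 0.161% to 7.93% of WT. For all 5, both A2Q libraries lay below both WT libraries and above both SIR3Δ libraries, which 4.21% of all genes tested did. Their median change was −3.00, against −0.03 over all genes tested.

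MF(ALPHA)2 (YGL089C, chromosome VII, 344791 to 345153), the minor alpha-factor gene, was at 2174 and 2177 in WT and 120 and 133 in A2Q. SIR3Δ held 6.2 and 6.78 and GPD-SIR3 2129 and 1540. The fall was 17.2-fold (−4.09 ± 0.17, limma adjusted p = 7.2e-06), the steepest among the called genes. MF(ALPHA)1 (YPL187W, chromosome XVI), the major alpha-factor gene, was at 2940 and 3154 in WT, 484 and 539 in A2Q and 7.36 and 2.42 in SIR3Δ. It fell 5.96-fold (−2.57 ± 0.34, limma adjusted p = 0.00751). Its call ended when any 1 of the 4 compared libraries was left out, with adjusted p up to 0.131, and 14.3% of its 50-base stretches recur in the genome, so it may share reads.

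STE3 (YKL178C, chromosome XI, 113215 to 114627), the receptor for a-factor, was at 2033 and 2287 in WT and 233 and 283 in A2Q. That was a fall of 8.37-fold (−3.06 ± 0.16, limma adjusted p = 2.95e-05), while SIR3Δ held 39.9 and 32. SAG1, the alpha-agglutinin, was at 1610 and 1194 in WT and 167 and 184 in A2Q (−2.98 ± 0.18). The SAG1 values of SIR3Δ, 118 and 105, were the closest to A2Q in this list. YLR040C, whose product is known as a barrier to a-factor, was at 617 and 606 in WT and 64.1 and 88.5 in A2Q (−3.00 ± 0.28). In GPD-SIR3 the 5 genes had values between −0.41 and 0.41 against WT, and none was called. The receptor and the pheromone genes thus stood between the WT and SIR3Δ levels in both A2Q libraries.

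A-specific genes, which mark a cells, were not called. MFA1, MFA2, AGA2 and ASG7 did not reach the minimum, with values of at most 4.08 in any library. MFA1, an a-factor gene, had 0 and 0 in WT and 4.08 and 0.671 in A2Q. STE2, the alpha-factor receptor, was at 41.9 and 35.9 in WT and 44.3 and 46.3 in A2Q (0.22 ± 0.42). STE6, the a-factor exporter, differed by −0.24 ± 0.22. BAR1, the alpha-factor protease, was at 36.3 and 50.6 in WT and 22.7 and 23.5 in A2Q (−0.86 ± 0.31, limma adjusted p = 0.629). Of the 3 tested, limma called 0 with 1 at an unadjusted p below 0.05, and the other 3 tools called 0. Alpha-specific transcripts fell without a call for any transcript of a cells.

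Haploid-specific genes are the class known to be shut off by a1/alpha2, and binding at each listed gene was not tested here. All 12 had a change below 0, with a median of −2.06. Limma called 11 of the 12 lower, against 0.626% of all genes tested. The A2Q means ranged from 12.5% to 55.1% of WT. All 12 genes again had both A2Q libraries between those of WT and SIR3Δ, which 4.21% of all genes tested had. The count was 7 without WT 1, 6 without WT 2, 4 without A2Q 1 and 5 without A2Q 2.

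The operator of a1/alpha2 was searched as the arms TCNTGT and TACATCA with 7 bases between them, on both strands, 250 bases before to 50 after the gene start. The reference genome of build R64 (RefSeq) gave the windows. With at most 3 differences at the fixed letters, 9 of the 12 genes had a match, as had 31.7% of 6020 promoters. With at most 2, a limit set after the matches were seen, 5 did, against 3.31%. In 800 bases before the start, a window also added later, 9 had a match with at most 2 differences, against 8.7%. STE4, AXL1 and AMN1 had no such match in either window. HO had the 1 match without any difference among all 6020 windows of that length. Sites of 6 genes are printed as examples, written in the direction of the motif, with letters that match the fixed positions in capitals.
STE5, IV:658160-658179, plus strand: TCaTGTacttttcTgCATCA
NEJ1, XII:675586-675605, plus strand: cCaTGTaaaaaaaTACATCA
STE18, X:585971-585990, minus strand: cCtTGTtaaatatTgCATCA
RDH54, II:383004-383023, plus strand: TCgcGTtaatataTgCATCA
HO, IV:48436-48455, minus strand: TCaTGTtattattTACATCA
GPA1, VIII:115256-115275, minus strand: gCaTGTtaaaaagcACATCA
The STE5 window is given whole, with the same letters in capitals, because it is the closest match within 250 bases before a called gene of this list.
STE5, IV:658100-658399, plus strand: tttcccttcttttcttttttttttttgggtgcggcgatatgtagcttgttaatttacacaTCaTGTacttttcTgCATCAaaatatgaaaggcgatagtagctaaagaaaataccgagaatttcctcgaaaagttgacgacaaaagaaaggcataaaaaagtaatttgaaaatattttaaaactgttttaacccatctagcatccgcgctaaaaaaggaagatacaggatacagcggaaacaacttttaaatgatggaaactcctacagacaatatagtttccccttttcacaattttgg
None of the 5 alpha-specific promoters had a match with at most 2 differences in either window. A match is a description of letters, and no binding was measured.

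Pheromone signalling genes of the haploid list fell, all 6 of them. GPA1 (YHR005C, chromosome VIII), the G-protein alpha subunit, was at 501 and 676 in WT, 83.4 and 89.9 in A2Q and 29.8 and 30 in SIR3Δ. It fell 6.79-fold (−2.73 ± 0.18, limma adjusted p = 0.000133). STE18, the gamma subunit, was at 100 and 72.3 in WT and 16.3 and 12.1 in A2Q (−2.52 ± 0.39, limma adjusted p = 0.0204). STE4, the beta subunit, was at 782 and 702 in WT, 388 and 386 in A2Q and 47.7 and 51.8 in SIR3Δ. Its fall was 1.92-fold (−0.93 ± 0.14). The 3 subunits of 1 G protein thus kept different shares of their WT level in A2Q, 14.7%, 16.5% and 52.2%, and the difference between the shares was not tested.

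FAR1, which arrests the cell cycle at pheromone, was at 417 and 620 in WT and 53.6 and 75.8 in A2Q. That was 8.01-fold lower (−2.98 ± 0.23, limma adjusted p = 0.000317). FUS3, the mating MAP kinase, was at 489 and 425 in WT and 102 and 74.4 in A2Q (−2.37 ± 0.32). STE5, the scaffold of that kinase cascade and the gene whose promoter is printed above, was at 459 and 446 in WT and 110 and 120 in A2Q. STE5 fell 3.93-fold (−1.97 ± 0.21, limma adjusted p = 0.00208). For each of these signalling genes both A2Q libraries lay below both WT libraries, as they did for 23.3% of all genes tested. The calls of STE4, STE18 and FUS3 ended without any 1 of the 4 compared libraries, with adjusted p up to 0.162, 0.354 and 0.121.

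Haploid-specific genes outside signalling also fell. HO, the endonuclease of mating-type switching, was at 212 and 246 in WT, 52.5 and 32.9 in A2Q and 1.94 and 4.36 in SIR3Δ (−2.43 ± 0.37, limma adjusted p = 0.0172). This call ended without any 1 of the 4 compared libraries (adjusted p up to 0.193). AXL1, the protease that matures a-factor and sets the haploid budding pattern, was at 414 and 356 in WT and 114 and 115 in A2Q (−1.74 ± 0.18). RDH54, a recombination helicase, went from 981 and 1071 to 498 and 500 (−1.04 ± 0.12). AMN1, a mitotic-exit inhibitor, went from 1754 and 1721 to 966 and 948 (−0.86 ± 0.10), the smallest fall of the list. RDH54 was no longer called without WT 2, A2Q 1 or A2Q 2, and AMN1 without A2Q 1 or A2Q 2 (adjusted p up to 0.079). NEJ1, a regulator of end joining, was at 73.5 and 80 in WT and 21 and 12.7 in A2Q but was not called (−2.16 ± 0.40, limma adjusted p = 0.0622).

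**Figure D2:**
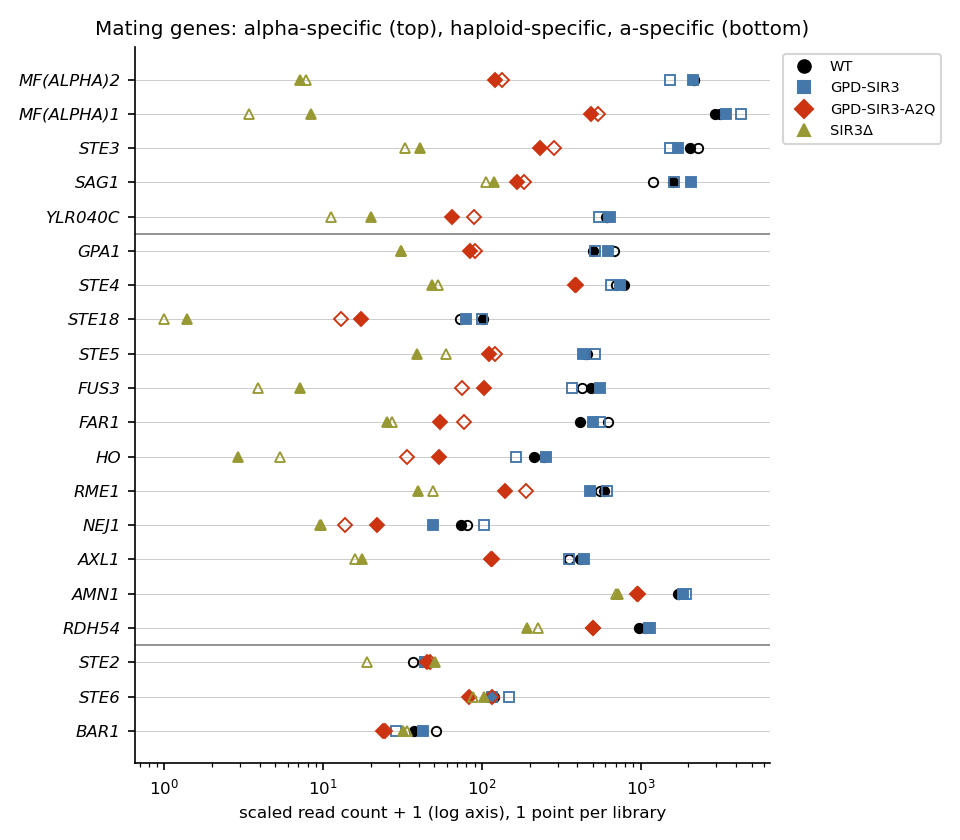
Scaled read count plus 1 on a log axis for 5 alpha-specific, 12 haploid-specific and 3 a-specific genes, 1 point per library, filled for library 1 and open for library 2 of a strain. The A2Q points lie below those of WT and above those of SIR3Δ for all 17 alpha-specific and haploid-specific genes, as in 4.21% of all genes tested. STE2, STE6 and BAR1 were not called, although both BAR1 points of A2Q lie below both of WT, as in 23.3% of all genes tested.

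Of 18 pheromone signalling kinases and regulators that both cell types share, 2 fell, against 0.626% of all genes tested, and the median was −0.06. SST2, which switches off the G protein, was at 648 and 622 in WT and 245 and 194 in A2Q (−1.54 ± 0.18, limma adjusted p = 0.0037). Without A2Q 2 it was not called (0.0568). TEC1, a transcription factor of filamentous growth, was at 201 and 186 in WT and 95.6 and 82.5 in A2Q (−1.12 ± 0.20, limma adjusted p = 0.0437). Its call ended without any 1 library of WT, A2Q or SIR3Δ (adjusted p up to 0.356) and with edgeR, limma-voom, both other scalings and no minimum (up to 0.0672).

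Of the genes that pheromone induces, 20 of 26 were tested and limma called 0. At an unadjusted p below 0.05 there were 9 of the 20, against 329 of 4898 genes beyond 50 kb from an end. DESeq2 called 1 of the 20, edgeR 0 and limma-voom 0. Their median change was −0.47, and for 12 both A2Q libraries lay below both WT libraries, against 23.3% of all genes tested. FUS1, needed for cell fusion, was at 84.7 and 75.3 in WT and 28 and 16.8 in A2Q (−1.83 ± 0.40, limma adjusted p = 0.125). KAR4, a transcription factor of nuclear fusion, had −0.86 ± 0.20, and PRM5 −0.58 ± 0.12. The pheromone response element TGAAACA stood, on either strand (TGTTTCA on the other), in 12 of the 26 promoter windows, against 7.48% of all 6020.

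IME4, the RNA methyltransferase that promotes meiosis, rose from nearly nothing. IME4 (YGL192W, chromosome VII, 142246 to 144048, plus strand) was at 2.16 and 0.588 in WT, 61.8 and 78.5 in A2Q, 2.25 and 1 in GPD-SIR3 and 132 and 117 in SIR3Δ. The change was 4.98 ± 0.49 (limma adjusted p = 0.0013). IME4 reached the minimum through the A2Q libraries alone, which favours genes that rise, and the p-value does not allow for this. WT had only 5 and 1 reads against 223 in A2Q, a ratio per read on genes of 46.5 with a 95% exact interval of 21 to 128. RME1, the repressor of meiotic entry and itself haploid-specific, was at 587 and 554 in WT and 139 and 190 in A2Q (−1.80 ± 0.20, limma adjusted p = 0.00314). Without A2Q 1, RME1 was not called (0.0512).

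YGL193C lies 18 bases from IME4 on the minus strand (141916 to 142227) and was chosen after its values were seen. It was at 48.4 and 37 in WT and 5.25 and 14.1 in A2Q (−2.16 ± 0.54, limma adjusted p = 0.246). SIR3Δ held 6.2 and 2.42, so the libraries with high IME4 were those with low YGL193C.

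RME1, lower, and IME4, higher, were the called genes of 10 tested in the IME4 and meiotic entry list. Over all genes tested 0.626% were called lower and 0.129% higher, and RME1 is also counted in the haploid-specific list. IME1, the master regulator, did not reach the minimum, with 8.21 and 4.7 in WT and 17.5 and 9.39 in A2Q. IME2, its kinase target, differed by −0.19 ± 0.24. MUM2, a partner of Ime4, was at 162 and 149 in WT and 177 and 143 in A2Q (0.03 ± 0.17), and its partner SLZ1 was below the minimum. Among 22 tested genes of early and middle meiosis limma called 0, with 2 at an unadjusted p below 0.05, and the other 3 tools called 0. The median was −0.06. IME4 rose, then, without a call for a meiotic gene of that list.

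**Figure D3:**
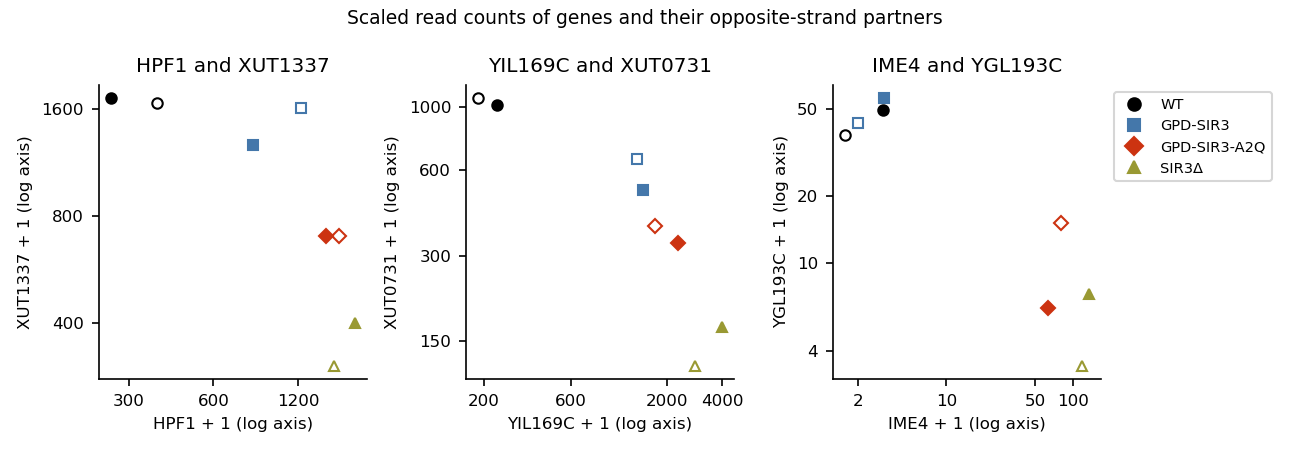
Scaled read counts plus 1 of 3 genes against a transcript on the opposite strand, both on log axes, 1 point per library, filled for library 1 and open for library 2. XUT1337 overlaps HPF1 and XUT0731 overlaps YIL169C, while YGL193C lies 18 bases from IME4. In each plot both A2Q libraries have more of the gene that rose and less of its partner than both WT libraries.

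Near chromosome ends, where Sir3 spreads from telomeres, few genes were called. Among 33 genes within 10 kb of an end limma called 0, with 4 at an unadjusted p below 0.05. There edgeR, DESeq2 and limma-voom each called 1, IMD2, an IMP dehydrogenase gene, which was at 483 and 346 in WT and 868 and 852 in A2Q (1.07 ± 0.22, limma adjusted p = 0.0901). The median change of these 33 genes was −0.12. Between 10 and 20 kb 2 of 78 rose and 1 fell, and between 20 and 30 kb 2 of 117 rose, against 0.129% of all genes that rose and 0.626% that fell. Beyond 50 kb 3 of 4898 rose and 31 fell, and 329 had an unadjusted p below 0.05. Median changes in all bins from 10 kb on lay between −0.03 and −0.0043. Of the 7 genes of the subtelomeric COS family that were tested, limma and the other 3 tools called 0, with 0 at an unadjusted p below 0.05. COS8 was at 380 and 312 in WT and 457 and 464 in A2Q (0.42 ± 0.20).

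The contrast with GPD-SIR3 at the same ends was of another size. A2Q was higher in 21 of the 33 genes within 10 kb and in 42 of 228 within 30 kb, against 45 of 5434 or 0.828% over all genes. The minimum was applied to the A2Q and WT libraries alone. Genes low in both strains but higher in GPD-SIR3 could therefore not be counted, which favours genes higher in A2Q. RDS1, a transcription factor gene at a distance of 3.16 kb from an end, was at 183 and 178 in A2Q, 195 and 236 in WT and 1.8 and 4 in GPD-SIR3. COS8 was at 457 and 464 in A2Q and 24.7 and 17 in GPD-SIR3 (4.42 ± 0.20, limma adjusted p = 6.83e-06). RDS1 and COS8 in A2Q thus lay far above GPD-SIR3 and were not called against WT. The comparisons with WT and with GPD-SIR3 share the A2Q libraries.

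**Figure D4:**
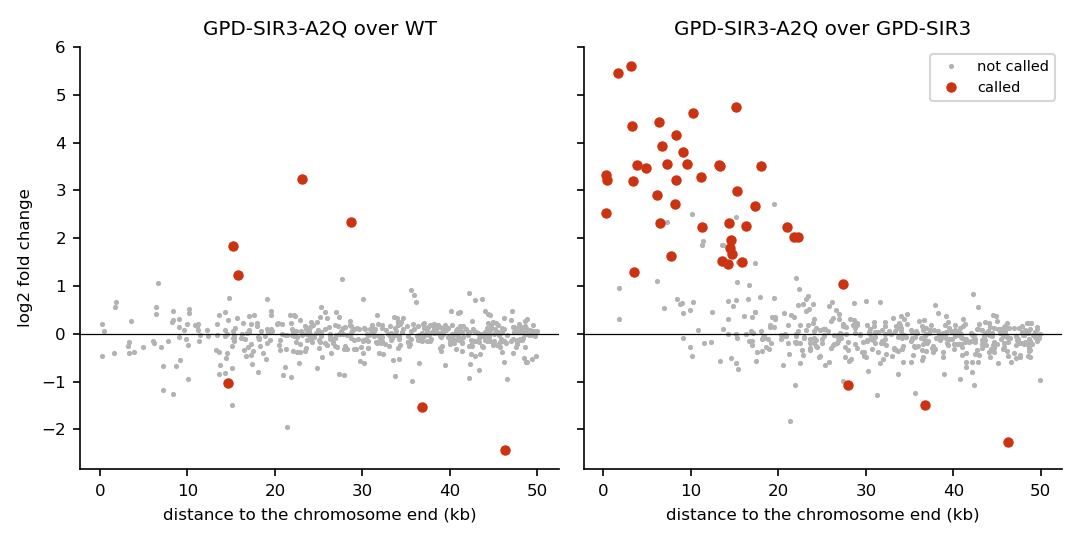
Log2 fold change of each gene within 50 kb of a chromosome end against its distance from that end in kb, for GPD-SIR3-A2Q over WT (left) and over GPD-SIR3 (right), with called genes in red. On the left 4 of 228 genes within 30 kb rose and 1 fell, against 0.129% and 0.626% of all genes tested. On the right 42 of them were higher and 1 was lower, against 0.828% and 0.589%. Between 30 and 50 kb, 2 genes were called lower in each panel and 0 higher.

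The 4 genes that rose within 30 kb were a pair of cell-wall genes and a pair of metabolic genes. YIL169C (chromosome IX, 23119 to 26106), a putative cell-wall protein, was at 235 and 185 in WT and 2296 and 1716 in A2Q (3.25 ± 0.20, limma adjusted p = 7.55e-05). HPF1 (YOL155C, chromosome XV, 28703 to 31606), a cell-wall mannoprotein, was at 259 and 376 in WT and 1502 and 1673 in A2Q (2.34 ± 0.22, limma adjusted p = 0.0011). Both were also high in GPD-SIR3, at 1484 and 1375 and at 827 and 1230, and in SIR3Δ, at 3993 and 2846 and at 1904 and 1607. The genes are related, and 17.3% and 13.8% of their 50-base stretches recur in the genome, so their reads may be shared.

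Transcripts opposite this pair moved the other way. XUT0731, which covers 1928 bases of YIL169C on the plus strand, was at 1017 and 1075 in WT and 330 and 381 in A2Q (−1.56 ± 0.25). XUT1337, across 2318 bases of HPF1, was at 1724 and 1671 in WT and 705 and 703 in A2Q (−1.27 ± 0.24). Neither was called among 2721 non-coding transcripts tested, of which limma called 0, or 0%, with 216 at an unadjusted p below 0.05 (adjusted p = 0.0856 and 0.144 for these). The lowest adjusted p among non-coding transcripts, 0.0793, was that of XUT0912 and SUT226. XUT0912 starts 457 bases from STE3 on the other strand and was at 84.7 and 56.5 in WT and 7 and 12.1 in A2Q, named after its values were seen. Opposite FAR1, SUT204 was at 351 and 224 in WT and 368 and 376 in A2Q (0.41 ± 0.28). Counting by strand is not stated, but a gene and its opposite transcript did not carry equal values.

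ADH4 (YGL256W, chromosome VII, 15159 to 16307), an alcohol dehydrogenase of the zinc regulon, was at 313 and 290 in WT and 1072 and 1092 in A2Q. GPD-SIR3 held 46.3 and 33 and SIR3Δ 1704 and 1558. ADH4 rose 3.59-fold in A2Q over WT (1.84 ± 0.17, limma adjusted p = 0.000879). The other 8 genes of the zinc regulon were not called, ZRT1 with −0.86 ± 0.27. CHA1 (chromosome III, 15798 to 16880), the serine and threonine deaminase near HML, was at 435 and 409 in WT and 1093 and 891 in A2Q (1.22 ± 0.17, limma adjusted p = 0.00958). Its call ended without any 1 of the 4 compared libraries (adjusted p up to 0.16). PHO89, a phosphate transporter 14.7 kb from an end, fell from 2053 and 2140 to 1014 and 1034 (−1.03 ± 0.17, limma adjusted p = 0.0286), a call that likewise ended without any 1 of them (up to 0.328). PHO84, the main phosphate transporter, was not called (0.15 ± 0.21), and PHO89 was the 1 called gene of 17 in the phosphate regulon, against 0.626% called lower of all genes tested. Over GPD-SIR3, A2Q was higher in both PHO89 and CHA1. The log2 fold changes were 1.67 (limma adjusted p = 0.00091) and 1.51 (limma adjusted p = 0.00158).

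Among 33 tested genes of sulfate assimilation and methionine synthesis, 4 fell and 0 rose, against 0.626% and 0.129% of all genes tested, with a median of −0.40 against −0.03 over all genes. For 22 both A2Q libraries lay below both WT libraries, and for 4 above, against 23.3% and 16.5% of all genes tested. MET3, ATP sulfurylase at the entry of the pathway, was at 686 and 737 in WT and 287 and 317 in A2Q (−1.23 ± 0.15, limma adjusted p = 0.00556). MET14, the next enzyme, went from 369 and 349 to 153 and 176 (−1.12 ± 0.16). MET5, a sulfite reductase subunit, went from 2273 and 2724 to 1064 and 1376 (−1.04 ± 0.18), and MET6, methionine synthase, from 11107 and 11828 to 5242 and 6561 (−0.97 ± 0.12). SUL1, a sulfate permease, had the largest difference of the list but few reads, 18.2 and 28.2 against 3.5 and 7.38, and was not called (−1.95 ± 0.52). In GPD-SIR3 the MET3 values were 352 and 296, and in SIR3Δ 829 and 1039. GPD-SIR3 against WT had 10 of the 33 called lower, with a median of −0.54, against 57 of 5434 genes tested. The list holds genes near ends, such as SEO1 at 7.23 kb. The count of 4 became 2 without WT 1, 0 without WT 2 or A2Q 1 and 1 without A2Q 2, and 9 with DESeq2.

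Of 49 genes of amino acid synthesis 2 fell, against 0.626% of all genes tested (4 with DESeq2, and 1, 0, 0 and 0 without WT 1, WT 2, A2Q 1 and A2Q 2), the median was −0.19, and 31 had both A2Q libraries below both of WT, which 23.3% of all genes tested had. ARG4, argininosuccinate lyase, was at 1225 and 1488 in WT and 457 and 526 in A2Q (−1.46 ± 0.20, limma adjusted p = 0.00906). HIS4, a histidine enzyme, was at 6069 and 6188 in WT and 2689 and 3393 in A2Q (−1.02 ± 0.18, limma adjusted p = 0.0477). ARG7, an arginine enzyme of mitochondria that is not in the list and was named after its values were seen, went from 1131 and 1115 to 638 and 610 (−0.85 ± 0.12). ARG4 was lost without WT 2 or either A2Q library, and HIS4 and ARG7 without any 1 of the 4 compared libraries, with adjusted p up to 0.16, 0.661 and 0.181. HIS4 was also lost with no minimum or a mean of at least 50 (up to 0.0528). LEU2 and HIS3, common marker genes, differed by −0.45 ± 0.11 and −0.39 ± 0.15 and were not called. In GPD-SIR3 against WT, 6 of the 49 listed genes were called lower, with a median of −0.33, against 57 of 5434 genes tested.

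Among 33 listed genes of nitrogen and amino acid uptake and use, 3 fell (1 without A2Q 1) and CHA1 rose, against 0.626% and 0.129% of all genes tested. GAP1, the general amino acid permease, was at 2776 and 2476 in WT and 819 and 914 in A2Q, a fall of 3.03-fold (−1.60 ± 0.11, limma adjusted p = 0.000185). GPD-SIR3, at 1297 and 1319, and SIR3Δ, at 1581 and 1448, lay between. MEP2, the high-affinity ammonium transporter, was at 774 and 733 in WT and 292 and 343 in A2Q (−1.25 ± 0.14), a call lost without A2Q 1 (limma adjusted p = 0.052). AGP1, a broad amino acid permease, went from 1494 and 1349 to 886 and 936 (−0.64 ± 0.11), and its call ended in 6 of the 8 omissions, with edgeR and with only the compared strains in the fit (up to 0.0773). The other genes of this list, such as PUT1 (−0.40 ± 0.27) and DAL5 (−0.07 ± 0.24), were not called.

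Single enzymes of other pathways fell as well. OPI3, a phospholipid methyltransferase, was at 780 and 632 in WT, 222 and 329 in A2Q and 328 and 286 in SIR3Δ (−1.37 ± 0.20, limma adjusted p = 0.0146). It was the 1 called gene of 15 in the inositol and phospholipid list, against 0.626% called lower of all genes tested. BNA1, of the NAD synthesis pathway, went from 244 and 257 to 112 and 131 (−1.04 ± 0.16), and ALD5, a mitochondrial aldehyde dehydrogenase, from 1256 and 1292 to 760 and 832 (−0.68 ± 0.11), both named after their values were seen. OPI3 was lost without WT 1, WT 2 or A2Q 1, BNA1 without any 1 of the 4 compared libraries, and ALD5 without these or either SIR3Δ library, with adjusted p up to 0.143, 0.205 and 0.338. With only the compared strains in the fit ALD5 was not called (0.0574).

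**Figure D5:**
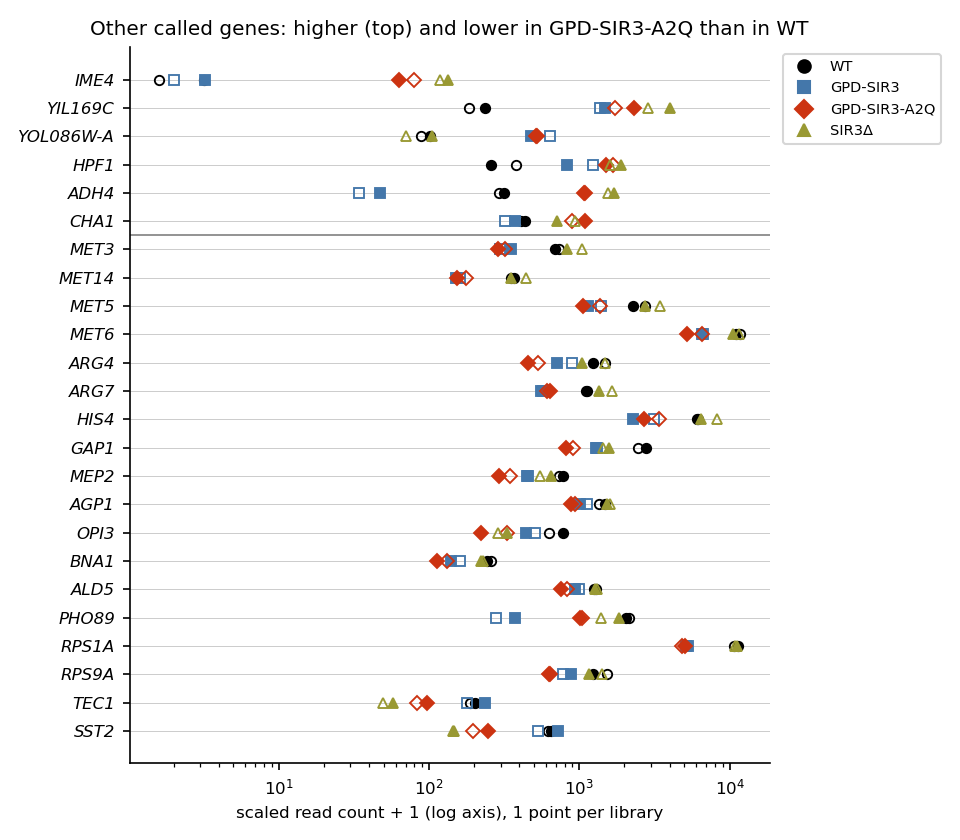
Scaled read count plus 1 on a log axis for the called genes outside the alpha-specific and haploid-specific lists other than SIR3, with the 6 higher genes above the line and the 18 lower genes below it. Each point is a library, filled for library 1 and open for library 2 of a strain. The A2Q and WT points do not overlap in any row, but the genes were chosen by their calls between these same libraries. Over all genes tested, both A2Q libraries lay below both WT libraries for 23.3% and above them for 16.5%.

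Of 138 ribosomal protein genes 2 fell, against 0.626% of all genes tested, and the median was −0.07. RPS1A (chromosome XII, 1018141 to 1018908) begins 406 bases beyond the 3′ end of SIR3 and was at 11445 and 10728 in WT, 5073 and 4858 in A2Q, 5272 and 5170 in GPD-SIR3 and 11237 and 10820 in SIR3Δ. It fell 2.23-fold (−1.16 ± 0.09, limma adjusted p = 0.000317). Its paralog RPS1B was at 20169 and 16305 in WT and 16863 and 16966 in A2Q (−0.10 ± 0.11). RPS9A was at 1235 and 1522 in WT and 629 and 636 in A2Q (−1.12 ± 0.15, limma adjusted p = 0.00742), a call lost without WT 2 or either A2Q library (up to 0.121). RPS9B, its paralog, differed by −0.12 ± 0.12. ECM7, which lies 373 bases from SIR3 on its 5′ side and was named after its values were seen, was at 607 and 593 in WT and 454 and 441 in A2Q and was not called (−0.42 ± 0.12).

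YOL086W-A (chromosome XV, 159173 to 159445), a gene 102 bases from ADH1, was at 99.9 and 87 in WT, 522 and 516 in A2Q, 474 and 634 in GPD-SIR3 and 104 and 69.8 in SIR3Δ. It rose 5.56-fold (2.46 ± 0.22, limma adjusted p = 0.000782). ADH1 itself, the main alcohol dehydrogenase, differed by 0.09 ± 0.09. CUT826, on the other strand of YOL086W-A, was at 224 and 180 in WT and 198 and 219 in A2Q. RPS1A and YOL086W-A thus had the WT level in SIR3Δ and another level in both overexpression strains, and what the constructs hold besides the promoter was not analysed here.

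Broad programmes without a call included stress, iron, sugar and respiration. In 27 general stress genes limma called 0, with 3 at an unadjusted p below 0.05, edgeR 1, DESeq2 1 and limma-voom 0, and the median was −0.57. The WT libraries differed from each other in this list, as in GPH1, glycogen phosphorylase, at 816 and 515 against 253 and 292 in A2Q. Of 23 iron genes limma called 0 with 4 at an unadjusted p below 0.05, and the other tools 0. Among 10 hexose transporters limma, edgeR and limma-voom called 0, DESeq2 3, and 4 had an unadjusted p below 0.05. HXT4, a high-affinity transporter, was at 1150 and 1462 in WT and 472 and 727 in A2Q (−1.15 ± 0.24). For 48 nuclear respiratory genes limma and the other 3 tools called 0, with 4 at an unadjusted p below 0.05, and the 8 mitochondrially encoded genes had a median of 0.01. Of the 4898 genes beyond 50 kb from an end, 329 had an unadjusted p below 0.05.

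Set directly against GPD-SIR3, A2Q was lower in 32 genes, 0.589% of those tested, besides the 45 that were higher. All 5 alpha-specific and all 12 haploid-specific genes were lower, MF(ALPHA)2 with −3.83 ± 0.17 (limma adjusted p = 6.83e-06) and STE4 with −0.84 ± 0.14 (limma adjusted p = 0.0164). STE4 and HO were not called there without A2Q 1, A2Q 2 or GPD-SIR3 1, STE18 without any 1 library of these strains and FUS3 without A2Q 2 (up to 0.172, 0.175, 0.12 and 0.0852), and NEJ1, at 0.0492, was lost in 7 of the 8 omissions. INO1, which makes inositol phosphate and was named after its values were seen, was at 59.5 and 79.8 in A2Q and 232 and 223 in GPD-SIR3. A2Q was not called against WT for INO1. Of the 15 inositol and phospholipid genes, 1 was called higher in GPD-SIR3 against WT and 0 in A2Q. The highest changes in that list were 2.14 in GPD-SIR3 and 0.44 in A2Q. Of the 20 pheromone-induced genes 4 were lower, among them AGA1, the anchor of the agglutinins (−1.59 ± 0.31), and GIC2, a polarity protein (−1.19 ± 0.18). The call of AGA1 ended in 7 omissions and that of GIC2 without A2Q 1, A2Q 2 or GPD-SIR3 1 (adjusted p up to 0.404 and 0.0981). The genes of methionine and histidine synthesis that fell against WT were not called here, MET3 with −0.10 ± 0.15 and HIS4 with 0.17 ± 0.18. The count of higher genes was 27 without A2Q 2, and that of lower genes 15 without A2Q 1 and 16 without A2Q 2.

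Against SIR3Δ, A2Q was higher in 20 genes (0.368%) and lower in 27 (0.497%). The higher genes included 4 of 5 alpha-specific and 10 of 12 haploid-specific genes. Of these, FAR1 was lost in 6 and STE5 in 5 of the 8 omissions, GPA1 without A2Q 1 or A2Q 2 and YLR040C without A2Q 2 (adjusted p up to 0.353, 0.252, 0.0765 and 0.0684). With limma-voom, FAR1, STE5, GPA1 and HO were not called, FAR1 was lost with edgeR, and STE18 was lost with only the compared strains in the fit (up to 0.173). MF(ALPHA)1 was higher by 6.58 ± 0.34 on the log2 scale (limma adjusted p = 1.83e-05) and FUS3 by 4.06 ± 0.32 (limma adjusted p = 0.000397). SAG1, AMN1 and NEJ1 were not called (0.65 ± 0.18, 0.43 ± 0.10 and 0.85 ± 0.40), nor was IME4 (−0.83 ± 0.49). The lower genes included 9 of 49 amino acid synthesis genes and 6 of 33 sulfur genes. ARG1, argininosuccinate synthase, was at 631 and 631 in A2Q and 2136 and 3203 in SIR3Δ (−2.05 ± 0.20, limma adjusted p = 0.00152). Within 30 kb of an end, 1 of 228 genes was called, SRY1, a serine racemase gene named after its values were seen. SRY1 was at 245 and 209 in A2Q and 452 and 418 in SIR3Δ, and its call was lost in 6 of the 8 omissions. Genes below the minimum in A2Q and WT, such as HMRA1, were not among the 228, whatever their SIR3Δ level. The higher count was 13 without A2Q 2. The lower count was 4 without A2Q 1, 8 without A2Q 2, 16 without SIR3Δ 1 and 5 without SIR3Δ 2.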

How the data were processed

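Total RNA of 8 libraries, 2 for each of 4 strains, was sequenced on a SOLiD platform, per the labels' protocols. TopHat 1.4.1 and build R64 are named in the submitters' processing notes, and the counting tool and strand setting were not given in the sources used here. The deposited table holds whole read counts per feature for GPD-SIR3 2. For the other 7 libraries the authors deposited a signal, read counts multiplied by 1 factor per library, so that the genes of every library sum to the same total. Dividing by the value of 1 read gave whole reads for 100% of values within 0.01 read. Another 16 per-sample columns were not used.

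Because of this scaling the main test was limma-trend (limma 3.58.1, R 4.3.3) on log2(value + 1) over 8 libraries and 4 groups, with Benjamini-Hochberg adjustment and a threshold of 0.05, where edgeR was planned for plain counts. edgeR 4.0.16 quasi-likelihood, DESeq2 1.42.0 and limma-voom on recovered reads, other scalings, pseudocounts, minimums and left-out libraries were alternatives. The scripts were tested on simulated data. Distances are to the nearer chromosome end, and repeated sequence was measured with stretches of 50 bases. Intervals and floors cover counting error only.

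The members and gene lists were chosen with earlier results of these data known. Named genes were SIR3, the SIR, cassette, alpha-specific, a-specific, haploid-specific and IME4 genes, the 15 higher and 15 lower called genes that changed most, called members of each list, and up to 3 others of a list. Others are marked as named after their values were seen. Replicates differed by more than sampling noise (chi-square per degree of freedom 16.3 to 43.3).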

Additional observations from a re-analysis of the deposited data

Results flagged for a closer look

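HMRA1 lay below the minimum level and was not among the genes of the main test, yet it had reads in GPD-SIR3-A2Q and none in WT. Its mean scaled read count was 10.5 in A2Q (13 and 20 reads), against 0 reads in both WT libraries and a floor of 1.53 for 3 counts per library. Its level in SIR3Δ, 53.7 ± 6.79 (SD, n = 2), was higher.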

How the results depend on the processing

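Against WT, the main counts were 7 higher and 34 lower genes. The replicate numbers of the titles were checked as pairs. The deviations of same-numbered libraries correlated at 0.55 for WT with SIR3Δ and 0.32 for GPD-SIR3 with GPD-SIR3-A2Q, and at −0.007, −0.033, 0.079 and 0.07 for the other pairs of strains. Since not every pair deviated together and the labels give no shared culture or day, the numbers were not treated as pairing the libraries. With the replicate block 11 genes were higher and 43 lower. DESeq2 gave 15 higher and 56 lower. Leaving out 1 library gave 6 to 10 higher and 11 to 35 lower genes. Against GPD-SIR3, 45 higher genes became 27 to 48 and 32 lower genes 15 to 34 with 1 library left out, and DESeq2 gave 49 lower. Against SIR3Δ, 20 higher genes became 13 to 19 and 27 lower genes 4 to 27, while limma-voom gave 13 higher and DESeq2 57 lower. The cause of these shifts was not tested, except that leaving out a library leaves fewer samples. No direction reversed among 4484 values of named genes under these alternatives, of which 4104 kept their side of the threshold or moved little, 323 lost a call, 37 gained one and 20 moved. TMM scaling shifted the median by 0.00279. With 2 libraries per strain, changes of genes with few reads rest on few counts.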
